A study of Mus musculus with 5 samples.

Results

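The cells described here were mouse penis cells, nearly all with mesenchyme markers, that carried the cartilage regulator Sox9 together with other genes of cartilage. They held little of the main cartilage collagen, Col2a1. They were chosen from single-cell RNA-seq of the penis by the UMIs (unique molecular identifiers, 1 per captured RNA molecule) in each cell. A penis cell was kept if it had 500 to 6000 genes detected and at most 5% of its UMIs from mitochondrial genes. A kept cell was selected if it had at least 2 UMIs of Sox9 and at least 1 UMI of 3 or more of 10 cartilage genes: Sox6, Sox5, Col11a1, Col9a1, Col9a2, Col9a3, Acan, Matn4, Mia and Col2a1. Cells with 1000 or more Col2a1 UMIs per 1000000 UMIs (CPM), or with any UMI of the epithelial gene Cdh1, the glial gene Sox10 or the bone-forming genes Sp7 and Ibsp, were left out. The rule found 1316 cells among 19633 kept penis cells, which came from 30237 penis barcodes and 84440 barcodes in the whole series. They are called Sox9 cartilage-gene cells below.

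The study concerns the baculum, the bone of the mouse penis, and set penis cells beside cells of the limb skeleton. Libraries were made with the 10X 3′ v3.1 chemistry from mice without an engineered allele, C57BL/6N in the labels and C57BL/6J in the study's methods. There were 3 penis libraries from males at postnatal day 6, 1 forelimb library and 1 hindlimb library, both at embryonic day 15 in the labels. No treatment is named for any group, and the labels do not tie a penis library to a particular animal. The p-values below therefore rest on libraries, not on known animals. Within penis, they measure how the difference inside a library varied over the 3 penis libraries. Against limb, they measure the spread among the 3 penis libraries and between the forelimb and hindlimb libraries. The study's methods took both kinds of limb from male embryos, so the limb libraries may share animals.

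As background, SOX9 is the transcription factor that directs mesenchymal cells into the cartilage lineage. SOX5 and SOX6 act beside it on the genes of cartilage matrix, among them collagens II, IX and XI and the large proteoglycan aggrecan (Acan). The baculum forms within the glans, partly through a cartilage template and partly from membrane-type bone. Sox9 is also made in connective tissue cells outside cartilage, such as progenitors of tendon and its attachments to bone.

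The penis libraries held 70554067 to 100636762 UMIs and the limb libraries 156060382 and 162335993. The Sox9 cartilage-gene cells numbered 466, 466 and 384 in penis libraries 1, 2 and 3, or 6.85%, 6.56% and 6.71% of the kept cells (mean 6.71% ± 0.145, SD, n = 3). Their median depth was 12080, 11250 and 10132 UMIs per cell, against 9758, 9219 and 8702 in the other kept cells. The deeper sampling moves with the rule, which needs UMIs of several genes, and its part in the differences below was not tested other than by limiting all cells to 5000 to 20000 UMIs. Between 20 and 37 barcodes occurred in any pair of penis libraries, and no barcode was a selected cell in more than 1 library. Of the selected cells, 117 were among the 8% of cells with the highest doublet scores.

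The genes of the rule are given as a description, without a test, since they chose the cells. The median selected cell had 4 Sox9 UMIs in each library, and the highest counts were 23, 30 and 24. Summed over the selected cells, Sox9 stood at 430.8, 437.7 and 446.4 CPM, against 72.9, 73.8 and 76.0 CPM in the other kept penis cells. Sox5 had 496.6, 485.6 and 499.2 CPM, and Sox6 had 258.8, 268.4 and 319.9 CPM. The collagen IX chains Col9a1 and Col9a3 lay at 291.6, 262.0 and 239.1 CPM and at 318.6, 309.2 and 297.2 CPM. The rule did not bring all 10 genes along. Matn4, a matrix linker protein, had 11.1, 7.01 and 8.44 CPM in the selected cells and 8.63, 9.35 and 8.68 CPM in the others. Col2a1 was lower in the selected cells, at 64.7, 72.8 and 56.4 CPM, than in the other kept cells, at 95.5, 125.5 and 112.8 CPM, where cells of any Col2a1 level and cells with bone genes remained. Among the other mesenchyme cells, defined below, it had 8.78, 8.65 and 7.32 CPM. Only 447 of the 1316 cells (34.0%) held a Col2a1 UMI, and the highest single-cell level was 956 CPM.

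**Figure D1:**
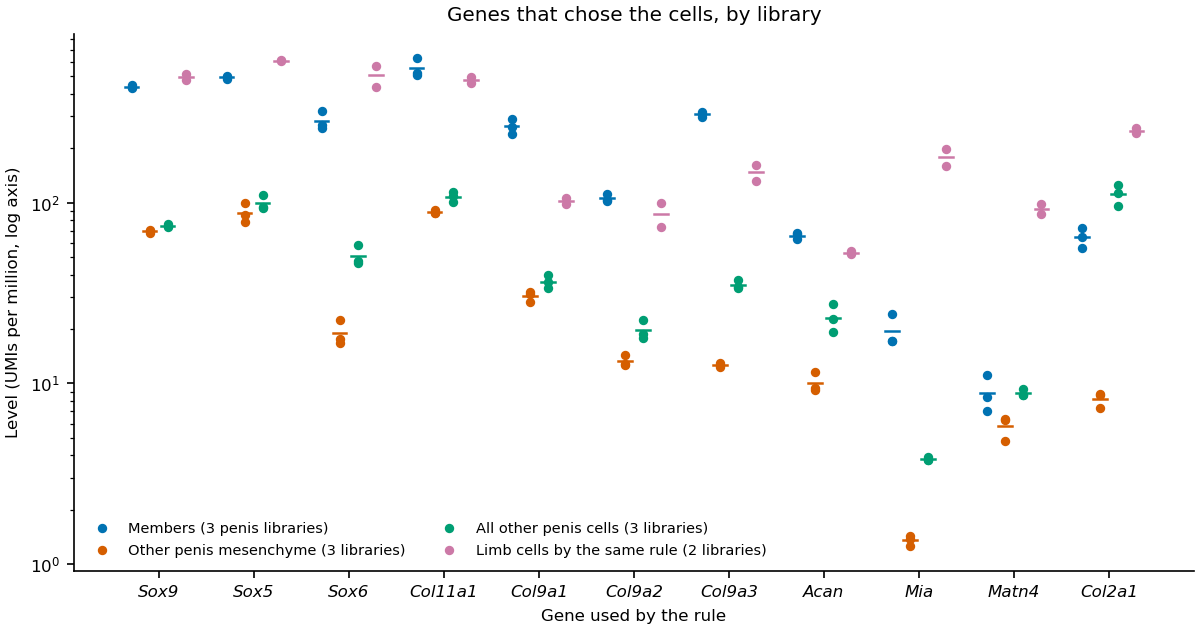
Levels of Sox9 and the 10 cartilage genes of the rule in CPM (log axis), with 1 point per library and a line at the mean, in the Sox9 cartilage-gene cells (members), the other penis mesenchyme, all other penis cells and the limb cells chosen by the same rule. Sox5 and Col9a3 lie far above the other penis cells because the rule chose for them, while Matn4 overlaps them and Col2a1 lies between all other penis cells and the other mesenchyme.

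The edges of the rule were gradual. Exactly 3 of the 10 cartilage genes were found in 319 cells, 4 in 262, 5 in 223, 6 in 213, 7 in 171, 8 in 102, 9 in 24 and all 10 in 2. Just outside lay 135, 136 and 126 cells per library with 1 Sox9 UMI and 3 or more cartilage genes, and 202, 181 and 153 cells with 2 or more Sox9 UMIs and 2 cartilage genes. The 10 cartilage genes summed to 722.6 to 824.2 CPM in selected cells with 3 of them, and to 417.7 to 488.8 CPM in the cells with 2. Above the Col2a1 limit lay 4 cells that otherwise met the rule (1, 1 and 2 per library), too few for a comparison.

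Of the 1316 selected cells, 1311 (99.6%) had UMIs of at least 5 of 10 mesenchyme markers, and that list summed to 5746 to 5941 CPM. The list also summed to 4367 to 4492 CPM in the other kept penis cells. In the edgeR fit, 7 of the 10 markers had an unadjusted p under 0.05 between the groups, 4 above and 3 below the other cells, but none reached a log2 fold-change of 1 in size (median -0.02). White blood cell markers summed to 27.8 to 132.3 CPM and keratinocyte markers to 130.4 to 226.7 CPM, against 468.0 to 533.6 and 961.9 to 1052 CPM in the other kept cells. The rule left cells with Cdh1 out of the selected cells only, so lower keratinocyte markers were favoured in advance. Endothelial markers summed to 114.1 to 126.3 CPM, against 507.4 to 566.3 CPM. Haemoglobin genes summed to 2935 to 6630 CPM, and to 5684 to 7783 CPM in the other kept cells, so RNA of red blood cells was read in both. Of 226 penis white blood cells (cells with UMIs of Ptprc and Tyrobp and none of Cdh1, Sox10, Pecam1 or Pdgfra), 1.33% held a Sox9 UMI at a median depth of 7126 UMIs, against 11170 in the selected cells. That gate itself left out white blood cells with stray RNA of mesenchyme or epithelium, so this share bears little on the background in the selected cells. The cells are called here by the rule that chose them.

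The selected cells did not form 1 cluster. When all kept penis cells were clustered without the genes of the rule, 3 of 46 clusters held 76.6% of the selected cells, and each contained many cells that were not selected. Cluster 5 held 361 of them (123, 144 and 94 by library), cluster 11 held 340 (114, 123 and 103) and cluster 8 held 307 (103, 98 and 106). A cluster of dividing cells, cluster 10, held a further 112. The selected cells made up 38.2% of cluster 5, 56.6% of cluster 11, 43.2% of cluster 8 and 18.2% of cluster 10. Sox9 was common among the rest of these clusters too, with a UMI in 60.3%, 65.1%, 45.7% and 27.8% of their other cells. The clusters are called here by their leading genes, which defined them and are descriptions only.

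**Figure D2:**
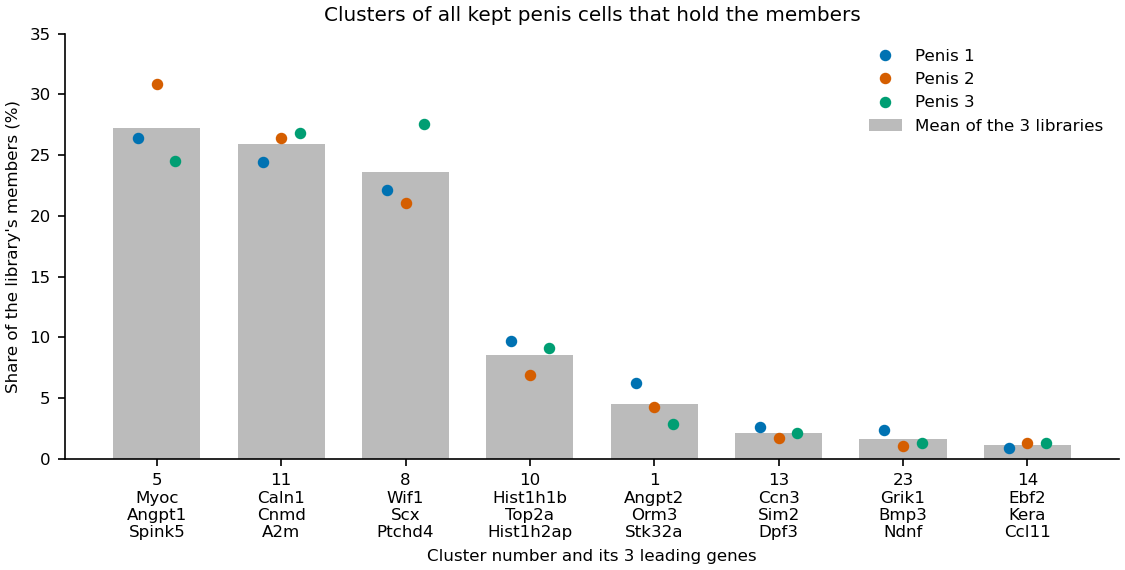
Share of the Sox9 cartilage-gene cells (members, percent) that fell in each of the 8 clusters with most of them, 1 point per library and a bar at the mean. Clusters 5, 11 and 8 hold 26.4%, 24.5% and 22.1% in library 1, and the order of the 3 changes between libraries.

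Cluster 5 was led by Myoc, Angpt1, Spink5 and Krt8. Myoc, which encodes the secreted protein myocilin, had 1156, 968.2 and 957.4 CPM in its selected cells, and the mean was 16.0 CPM in those of cluster 11 and 256.6 CPM in those of cluster 8. Angpt1, a ligand of the vascular receptor TEK, had 776.4, 735.1 and 867.9 CPM, against means of 20.4 and 69.6 CPM. Col1a1, a chain of collagen I, averaged 2030 CPM ± 250.9, below 9510 ± 242.3 in cluster 11 and 12780 ± 1304 in cluster 8 (SD, n = 3).

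Cluster 11 was led by Caln1, Cnmd, A2m and Col24a1. Cnmd, or chondromodulin, is a membrane protein of cartilage that inhibits vessel growth. It had 939.1, 649.0 and 699.1 CPM in the selected cells of cluster 11 and averaged 12.4 and 12.7 CPM in those of clusters 5 and 8. A2m, a protease inhibitor, had 149.6, 179.6 and 141.0 CPM and averaged 0.246 and 0.327 CPM elsewhere. Esr1, the oestrogen receptor alpha, had 599.9, 577.2 and 606.0 CPM against means of 34.8 and 38.4 CPM. Sox6 and Col9a3, both genes of the rule, averaged 567.1 ± 75.9 and 729.5 ± 55.1 CPM here.

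Cluster 8 was led by Wif1, Scx, Ptchd4, Tnmd and Chad. Wif1, a secreted inhibitor of Wnt ligands, had 2559, 2504 and 2269 CPM in its selected cells, and averaged 616.5 CPM in cluster 5 and 47.7 CPM in cluster 11. Scx and Tnmd are the transcription factor and membrane protein that mark tendon cells. Scx had 102.5, 101.4 and 163.9 CPM and Tnmd 108.2, 52.7 and 201.1 CPM, and Tnmd varied more between libraries than Scx did. Chad, or chondroadherin, a cartilage matrix protein that binds collagen, had 192.7, 259.5 and 196.2 CPM and averaged 88.0 and 58.4 CPM in clusters 5 and 11.

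Sox9, Col11a1 and Col9a1 are genes of the rule, and their levels by cluster are a description. Each cell had at least 2 Sox9 UMIs by choice. Sox9 stood at 458 ± 12.2, 491.3 ± 11.97 and 509.3 ± 30.7 CPM in clusters 5, 11 and 8. Col11a1 averaged 71.5 CPM in cluster 5, 976.2 in cluster 11 and 889 in cluster 8. Col9a1 was highest in cluster 5, at 389.8 ± 44.0 CPM, against means of 252.3 and 276.9 CPM in clusters 11 and 8. Runx2, the regulator of bone formation, averaged 12.1 ± 3.66 CPM in cluster 5, 51.9 ± 14.2 in cluster 11 and 95.01 ± 52.2 in cluster 8, where the libraries stood at 108.2, 37.5 and 139.3 CPM. Its order between clusters 11 and 8 was within that spread.

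**Figure D3:**
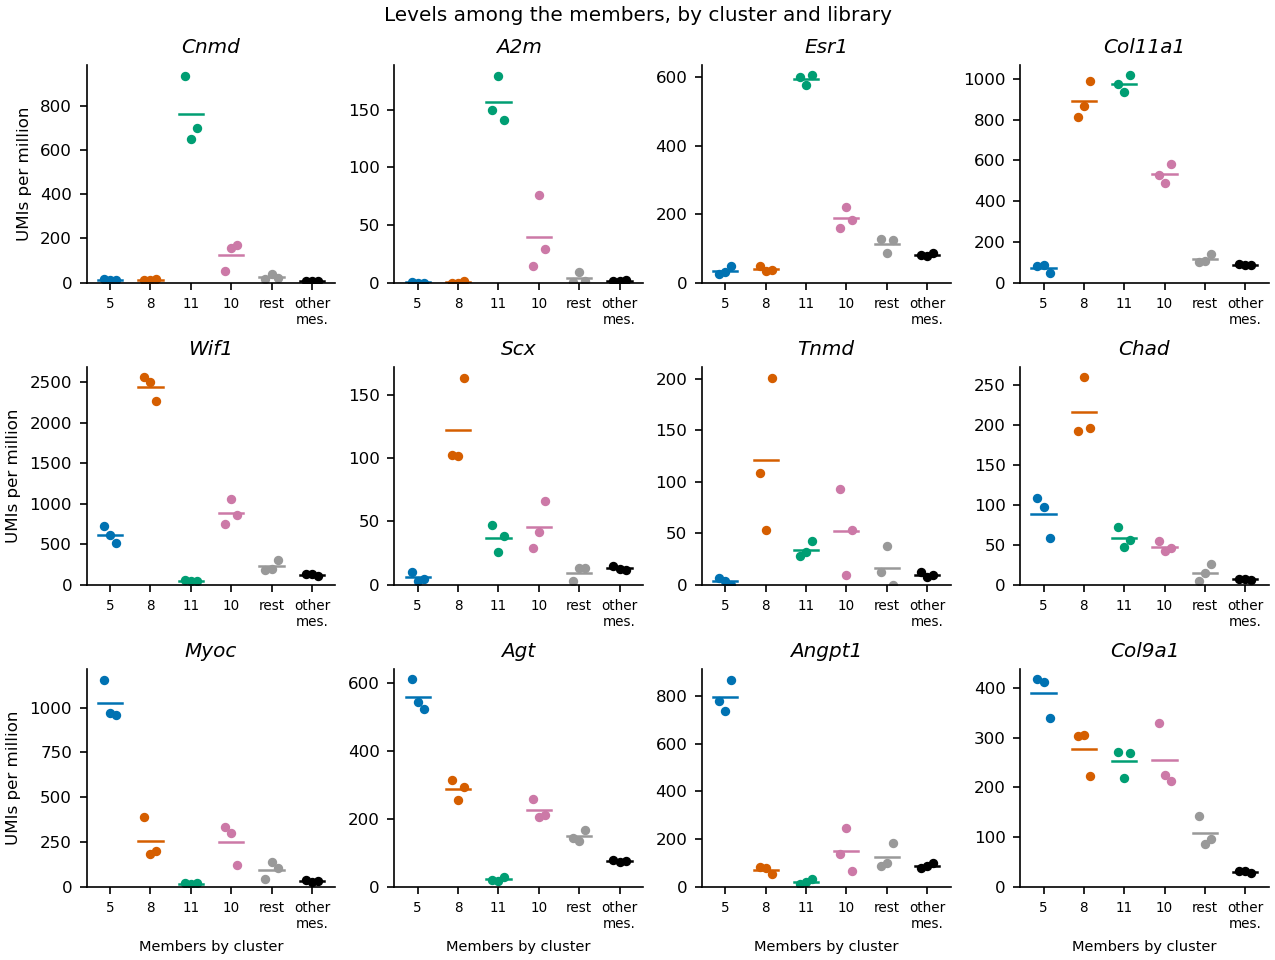
Levels of 12 genes in CPM (linear axes from 0) in the Sox9 cartilage-gene cells (members) of clusters 5, 8, 11 and 10, in the rest of them and in the other penis mesenchyme, with 1 point per penis library and a line at the mean. Cnmd, A2m and Esr1 are high in cluster 11, Wif1, Scx, Tnmd and Chad in cluster 8, and Myoc, Agt and Angpt1 in cluster 5.

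For the tests, UMIs were summed per library over the selected cells and over the comparison cells of the same library, and compared with edgeR's quasi-likelihood test with the library as a block. A gene was called when its adjusted p was at most 0.01 and its log2 fold-change reached 1 in size in either direction. All genes tested were read in the cells chosen by the rule, so genes that go along with the rule's genes in the same cells were bound to be favoured. The rule's own genes were left out of the tests.

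Against all other kept penis cells, 18514 genes were tested, of which 582 (3.14%) were called higher and 1860 (10.0%) lower in the Sox9 cartilage-gene cells. Of 29 cartilage genes outside the rule, 10 were higher and 7 lower, with a median log2 fold-change of 0.50 against -0.02 over all genes. The higher ones were Cnmd, Scrg1, Chad, Ucma, Prg4, Col11a2, Barx1, Nfatc2, Wwp2 and Fgfr3. Cnmd had 267.5, 222.4 and 226.1 CPM in the selected cells and 15.6, 15.8 and 18.5 CPM in the others (log2 fold-change 3.89, SE 0.07, edgeR adjusted p = 2.8e-15). The difference lay mostly in cluster 11, of which Cnmd was a leading gene: 58.5% of its selected cells held a Cnmd UMI, against 17.1% in cluster 10, 7.51% and 4.57% in clusters 5 and 8 and 4.82% of the other penis cells (1.34% of white blood cells), and the means in clusters 5 and 8, 12.4 and 12.7 CPM, were no higher than in the other penis cells. Thinned to 5000 UMIs, the shares were 54.5%, 12.3%, 4.68%, 3.21%, 3.23% and 0.583%. Chad had 86.2, 91.6 and 85.3 CPM against 7.30, 6.496 and 5.86 CPM (3.78, SE 0.08, edgeR adjusted p = 1.8e-14). The 7 lower genes included Col10a1, the collagen of hypertrophic cartilage, at 2.04, 3.77 and 0.723 CPM against 18.5, 33.9 and 11.1 CPM, and Comp, Matn2 and Epyc. The direction of Comp turned within mesenchyme (below), and Col10a1 was not called there, at 1.70, 4.26 and 0.984 CPM against 2.89, 4.02 and 1.55 CPM. Hypertrophic markers summed to 1760 to 2962 CPM in cells with Runx2 and Sp7 or Ibsp, which stood only on the other side of this comparison.

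Grem1, an antagonist of BMPs, had 304.9, 349.3 and 404.7 CPM against 21.3, 22 and 20.1 CPM (log2 fold-change 4.09, SE 0.07, edgeR adjusted p = 2.8e-15). Bmp5, a BMP ligand known for its part in skeletal shape, had 150.3, 153.1 and 154.5 CPM against 10.95, 10.5 and 11.5 CPM (3.84, SE 0.06, edgeR adjusted p = 5e-16). Both are named genes, which were chosen for changing the same way in every library. Wif1 rose by 3.27 (SE 0.07), from 72.9 to 90.8 CPM in the other cells to 733.4 to 820.5 CPM. The remaining named rises were Fbxo2, Egfem1, Caln1, Spink5, Myoc, Ptchd4 and Prg4, the last being lubricin, a lubricant of joint surfaces. Of 29 BMP genes, 6 were higher and 3 lower, and of 35 Wnt genes 5 were higher and 10 lower.

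The largest falls were in genes of other cell types: S100a9, S100a8 and Stfa1 of white blood cells and skin, Psca of epithelium, and Mbp and Mal of myelinating glia. All 11 keratinocyte markers, all 10 white blood cell markers, 6 of 7 endothelial markers and 5 of 6 glial markers were lower. The other glial marker, S100b, was higher. The 6 glial markers summed to 153.1 to 165.6 CPM in the selected cells of cluster 5. In those of clusters 11, 8 and 10 the sums were 30.8 to 37.7, 32.4 to 59.8 and 30.9 to 87.7 CPM. The rule had left cells with a UMI of Cdh1 or Sox10 out of the selected cells only. Lower genes of epithelium and glia were thus favoured in advance. Spp1, a bone matrix protein, stood at 4.09, 5.21 and 3.62 CPM against 130.1, 136.6 and 80.8 CPM (log2 fold-change -4.73, SE 0.10, edgeR adjusted p = 1.2e-14), and the rule itself had removed cells with Sp7 or Ibsp. This comparison therefore mixes differences between cell types with differences within mesenchyme.

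A second comparison was made within mesenchyme. A gate kept cells with at least 5 of 10 mesenchyme markers, Col2a1 under 1000 CPM and no UMI of Cdh1, Sox10, Sp7, Ibsp, the vessel genes Pecam1 and Cdh5 or the white blood cell gene Ptprc, and it left 968 of the selected cells (345, 331 and 292) and 9110 other mesenchyme cells. Since 1311 of the 1316 selected cells had at least 5 mesenchyme markers, nearly all that the gate removed held a UMI of Pecam1, Cdh5 or Ptprc. Endothelial markers, which include Pecam1 and Cdh5, summed to 26.7 to 37.1 CPM in the selected cells that passed. Of 16176 genes tested, 676 (4.18%) were higher and 992 (6.13%) lower in the selected cells. Keratinocyte markers summed to 131 to 170.4 CPM in the selected cells and 155.2 to 209.3 CPM in the other mesenchyme, white blood cell markers to 20.01 to 26.1 and 28.3 to 28.7 CPM, and haemoglobin genes to 2233 to 5993 and 4435 to 6544 CPM. Of 7 pericyte markers, Rgs5, Kcnj8, Abcc9 and Higd1b were lower in the selected cells and Cspg4 was higher, with a median log2 fold-change of -2, and the list summed to 138.4 to 168.6 against 195.5 to 246.1 CPM. In all selected cells of cluster 5, gated or not, the list summed to 251.2 to 368.6 CPM. In those of clusters 11, 8 and 10 the sums were 83.1 to 85.5, 89.2 to 103.0 and 153.1 to 185.2 CPM. Of 5 endothelial markers tested, Kdr and Tek were lower, and of 5 glial markers tested, S100b was higher, at a mean of 53.4 against 17.3 CPM. The part of these cell types in the other calls was not tested. Dividing cells were not removed, and Top2a, Birc5, Aurkb and Rrm2, 4 of 17 division genes, were higher. Without every cell that held a UMI of Mki67, Top2a or Cenpf, 583 genes were higher and 886 lower.

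Genes of cartilage that the rule had not used rose in this comparison. Of 27 cartilage genes tested, 16 were higher and 2 lower, with a median log2 fold-change of 1.2 against 0.00 over all genes. Cnmd had 313.7, 266.5 and 281.1 CPM in the selected cells and 8.53, 6.98 and 9.12 CPM in the other mesenchyme (5.14, SE 0.07, edgeR adjusted p = 5.9e-18). Scrg1, a secreted peptide found in cartilage, had 63.4, 54.6 and 55.1 CPM against 1.06, 1.03 and 1.38 CPM (5.66, SE 0.14, edgeR adjusted p = 1.4e-14). Col11a2, which encodes a chain of collagen XI, had 77.2, 76.2 and 75.1 CPM against 4.54, 4.86 and 6.61 CPM (3.87, SE 0.11, edgeR adjusted p = 4.5e-14). A rise in every library was required of these 3 genes, since they are named ones. Of the 3, Cnmd and Scrg1 are leading genes of cluster 11. Cnmd was far lower in the selected cells of clusters 5 and 8 (above). Wwp2, Nfatc2, Chst11 and Xylt1, the last 2 being enzymes that build the sugar chains of proteoglycans, rose less, by 1.97, 2.00, 1.43 and 1.17. Comp, a cartilage matrix protein, was higher here, at 8.498, 6.66 and 7.545 CPM against 3.73, 3.86 and 3.10 CPM (1.08, SE 0.22, edgeR adjusted p = 0.00078). Epyc, a small proteoglycan, was lower, at 0, 2.93 and 0.328 CPM against 6.66, 7.33 and 7.36 CPM.

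Of the cartilage genes outside the rule, 7 were higher against the other penis cells, the other mesenchyme and the limb cells described below: Cnmd, Prg4, Chad, Col11a2, Scrg1, Fgfr3 and Ucma. The 3 comparisons share the selected cells, so they are not independent. The limb side also lacked its cells over the Col2a1 limit (below), and the part of this in the limb calls was not tested. Promoters of 3 of the 5 genes with a window in the RefSeq table are shown, for the genes whose values are given most fully. Each is the 250 bases before the transcription start in RefSeq, build GRCm38.p6, on the strand of the gene, with capitals on the TATA motif TATAAA: Cnmd at chr14:79662184-79662433 (minus strand), Chad at chr11:94564797-94565046 (plus strand) and Col11a2 at chr17:34038888-34039137 (plus strand).
Cnmd: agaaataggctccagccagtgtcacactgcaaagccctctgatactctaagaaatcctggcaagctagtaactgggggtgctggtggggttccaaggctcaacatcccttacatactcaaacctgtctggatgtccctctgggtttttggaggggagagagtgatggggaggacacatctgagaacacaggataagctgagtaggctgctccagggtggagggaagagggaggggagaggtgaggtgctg
Chad: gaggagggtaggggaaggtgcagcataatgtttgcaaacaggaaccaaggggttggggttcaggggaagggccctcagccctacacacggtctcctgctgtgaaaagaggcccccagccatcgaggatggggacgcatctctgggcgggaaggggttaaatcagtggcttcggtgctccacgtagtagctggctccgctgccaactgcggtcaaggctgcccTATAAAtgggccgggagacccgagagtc
Col11a2: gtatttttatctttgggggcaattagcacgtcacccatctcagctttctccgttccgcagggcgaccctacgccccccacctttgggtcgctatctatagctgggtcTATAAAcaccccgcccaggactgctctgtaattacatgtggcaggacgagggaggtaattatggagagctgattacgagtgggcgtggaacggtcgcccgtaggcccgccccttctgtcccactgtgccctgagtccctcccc
TATAAA on either strand lay once in the Chad and Col11a2 windows and not in that of Cnmd. The SOX core motif, ACAAAG or ACAATG on either strand, lay in none of the 3. The windows of Fgfr3 and Ucma, read in the same way and not printed, held neither motif, so TATAAA lay at 2 of 5 genes and the SOX core at none. Over all 32851 promoter windows of the same length, 25.2% held the SOX core and 12.4% held TATAAA. The shares were 17.3% and 6.60% among 11949 windows of genes tested against the other mesenchyme and 16.5% and 7.14% among 462 of genes called higher. These matches describe letters in a window and no more.

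Of 6 tendon markers tested against the other mesenchyme, 4 were higher (Mkx, Scx, Tnmd and Fmod) and Thbs4 was lower, with a median log2 fold-change of 1.99. Mkx, a transcription factor of tendon, had 174.3, 177.9 and 198.5 CPM against 35.9, 31.9 and 38.0 CPM (2.38, SE 0.06, edgeR adjusted p = 9.4e-15). Tnmd had 53.2, 24.2 and 86.0 CPM against 12.2, 7.14 and 9.46 CPM (2.42, SE 0.18, edgeR adjusted p = 1.2e-08), with the selected cells of every library above all others. Fmod, a small proteoglycan that binds collagen fibrils, rose by 1.97 (SE 0.05). The tendon level differed between clusters: the 6 markers summed to 725.6 to 845.3, 847.4 to 1108 and 473.3 to 570.9 CPM in the selected cells of clusters 11, 8 and 10, but to 62.4 to 118.2 CPM in those of cluster 5, below the 203.3 to 215.5 CPM of the other mesenchyme. The cluster sums also covered selected cells that had not passed the gate.

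Bone genes moved in both directions. Of 13 tested, Runx2, Dlx5 and Dlx6 were higher and 3 were lower, among them Alpl and Phex. Runx2 had 52.2, 56.2 and 69.2 CPM in the selected cells and 8.90, 11.4 and 16.3 CPM in the other mesenchyme (2.32, SE 0.10, edgeR adjusted p = 6e-12). The rise was not in every cluster. The Runx2 mean in the selected cells of cluster 5 (above), gated or not, lay within the 8.90 to 16.3 CPM of the other mesenchyme. Against all other kept penis cells, where bone-forming cells remained, Runx2 had 41.7, 48.3 and 56.6 CPM against 23.8, 24.6 and 29.5 CPM. The log2 fold-change of 0.95 (SE 0.07) missed the limit of 1. It passed that limit without penis library 1 (1.01). Few cells carried these UMIs. Each cell was thinned to 5000 UMIs, which left out 4, 10 and 20 selected cells by library. Runx2 was then found in 8.15% ± 0.195 of the selected cells and 3.33% ± 0.299 of the other mesenchyme. The first share also covered selected cells that had not passed the mesenchyme gate. The share in penis white blood cells was 12.1% ± 0.744, and their Runx2 levels, 27.5, 22 and 55.3 CPM, overlapped those of the selected cells. The call of Runx2 is therefore a difference from the other mesenchyme in summed UMIs, and the share of cells alone is not read as expression. Runx2 averaged 1026 CPM in the penis cells gated on Runx2 together with Sp7 or Ibsp.

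Of 25 penis stromal genes, 13 were lower, 1 higher and 11 not called, with a median log2 fold-change of -1.03. Of 41 matrix genes 14 were lower, 5 higher and 22 not called. Dpt, or dermatopontin, a marker of skin and other fibroblasts, had 33.0, 38.3 and 27.9 CPM in the selected cells and 351.4, 382.5 and 374.1 CPM in the other mesenchyme (-3.46, SE 0.07, edgeR adjusted p = 1.3e-15). Pi16, a marker of fibroblast progenitors, had 4.37, 5.86 and 5.91 CPM against 58.0, 61.4 and 51.8 CPM, and Clec3b was lower by the most, at 3.89, 11.4 and 4.26 CPM against 124.4, 116.6 and 111.5 CPM. Among matrix genes, the elastic fibre protein Mfap5 fell by 3.32 and elastin (Eln) by 1.41 on the log2 scale. Lox, which cross-links collagen and elastin, had 215.8, 225.3 and 195.5 CPM against 479.4, 498.7 and 485.6 CPM (-1.19, SE 0.05, edgeR adjusted p = 7e-12). Aspn, a small proteoglycan, had 303.0, 301.2 and 378.2 CPM against 240.6, 274.1 and 246.8 CPM, and its difference of 0.37 was below the limit.

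**Figure D4:**
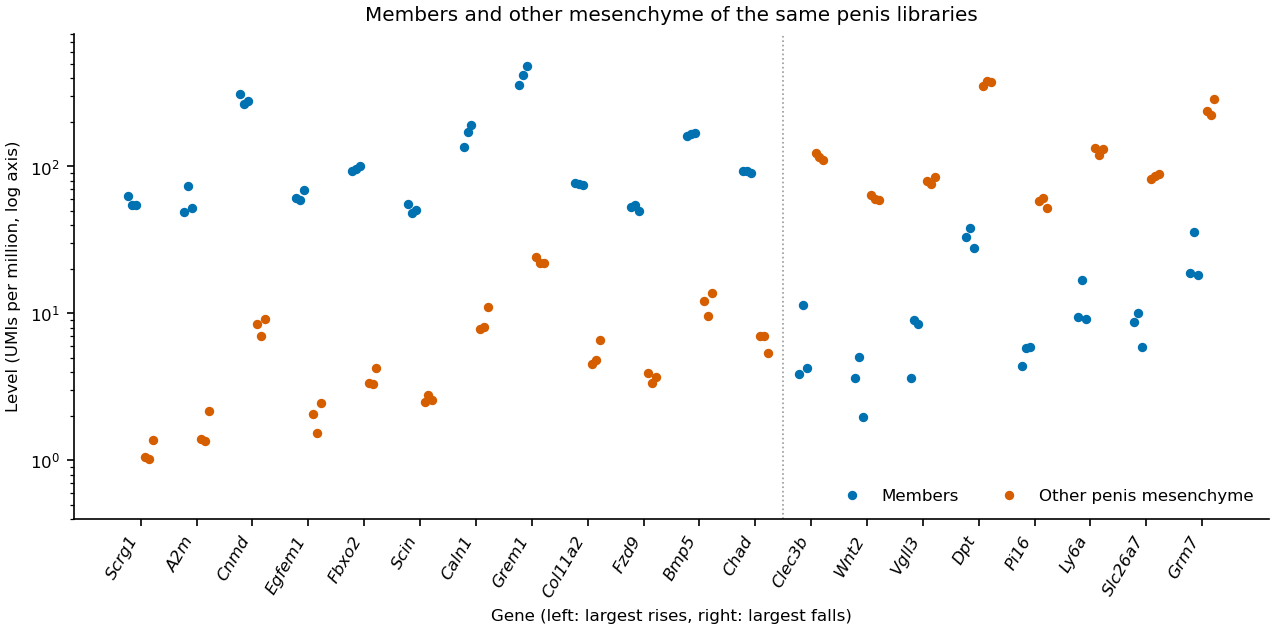
Levels in CPM (log axis) of the 12 largest rises and 8 largest falls in the Sox9 cartilage-gene cells (members, 968 cells) and in the other penis mesenchyme (9110 cells), 1 point per library. Scrg1, A2m and Cnmd show the widest gaps upward and Clec3b and Wnt2 the widest gaps downward. Scrg1, A2m and Cnmd are leading genes of cluster 11, and A2m and Cnmd were low in the selected cells of clusters 5 and 8. The genes were chosen for changing the same way in every library.

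Among signalling genes, the Wnt list leaned lower: of 33 tested, 4 were higher and 11 lower, with a median of -0.74. Wif1 and the transcription factor Lef1 were higher, by 2.86 and 1.81, as were Dkk3 and Lgr6. The ligand Wnt2 had 3.64, 5.06 and 1.97 CPM against 64.1, 60.1 and 59.1 CPM (-4.06, SE 0.15, edgeR adjusted p = 1.2e-12). The inhibitors Sfrp2 and Dkk2 and the receptor Lgr5, which binds R-spondins, also fell, by 2.20, 2.28 and 2.75. Of 29 BMP genes, 7 were higher, among them Bmp5, Grem1, the receptor Bmpr1b and the antagonist Nog, and 6 were lower, among them Bmp4 and Bmp7. Of 37 patterning factors, 5 were higher, with Tbx15 and Six2 up by 2.00 and 1.67, and 11 were lower, with Osr2, Osr1 and Sim1 down by 2.67, 2.48 and 2.88.

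Esr1 was higher in the selected cells than in the other mesenchyme, at 232.1, 246.8 and 262.1 CPM against 81.3, 76.8 and 85.1 CPM (1.61, SE 0.05, edgeR adjusted p = 3.6e-13), but not in every cluster. The means in the selected cells of clusters 5 and 8, 34.8 and 38.4 CPM, lay below those other cells, while cluster 11 stood at 577.2 to 606.0 CPM and cluster 10 at 160.3 to 221.7 CPM. The cluster values also covered selected cells that had not passed the gate. Srd5a2, the enzyme that converts testosterone to dihydrotestosterone, was lower, at 46.6, 45.3 and 42.7 CPM against 95.3, 101.2 and 88.8 CPM (-1.08, SE 0.07, edgeR adjusted p = 9.1e-10). Of 14 steroid genes tested, these 2 and Nr3c2, the mineralocorticoid receptor, which was lower, were called.

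The rule cut through clusters, and fewer genes were called between selected cells and the other cells of their own cluster. Cells of a cluster were grouped for like expression, and these sums held fewer cells. The counts therefore cannot be set against those above. In cluster 5, 25 of 10362 genes (0.241%) were called in either direction, 9 higher and 16 lower. In cluster 11, 99 of 9950 (0.995%) were called, 4 higher and 95 lower, and the lower genes included Runx2, Alpl, Wnt16 and Dkk2. The rule kept Sp7, Ibsp and high Col2a1 out of the selected cells but not out of the other cells of any cluster. Lower bone genes were thus favoured in advance, and the size of this effect was not tested. With all cells limited to 5000 to 20000 UMIs, 3 were higher and 59 lower in cluster 11. In cluster 8, 111 of 9408 (1.18%) were called, 36 higher and 75 lower. Scx was lower there in the selected cells, at a mean of 122.6 against 258.6 CPM (log2 fold-change -1.13). Globin genes were among the higher genes of cluster 8, with Hbb-bs, which may share reads with its near-identical neighbour Hbb-bt, at 2741 against 166.5 CPM (3.84). Red blood cell RNA thus moved with the rule in that cluster, and its part in the other differences was not tested.

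The dividing cluster, cluster 10, differed most, with 472 of 10752 genes called (4.39%), 201 higher and 271 lower. Of 19 cartilage genes outside the rule tested there, 9 were higher and none was lower. In the other clusters, edgeR called 0 of 17 genes of the list in cluster 5 and 0 of 21 in cluster 11, where 12 and 11 had an unadjusted p under 0.05, and 1 of 21 in cluster 8, Prg4, which was higher. The median log2 fold-changes of the list were 0.29, 0.18 and 0.04 there and 1.35 in cluster 10. Cnmd averaged 125.7 CPM in the selected cells of cluster 10 and 15.6 CPM in its others (log2 fold-change 3.04). Prg4, Bmp5, Wif1, Grem1 and Esr1 were also higher, by 3.42, 3.32, 2.92, 2.63 and 1.82, as were 5 of 6 tendon markers. Spp1, Osr1, Pi16 and Dpt were lower, as were 4 of 5 smooth muscle markers. The 4 globin genes tested were also lower, opposite to cluster 8, with a median log2 fold-change of -2.42. Hbb-bs had 100.2, 1115 and 80.2 CPM in the selected cells of cluster 10 against 1579, 3454 and 225.2 CPM in its others, lower in each library but with overlapping ranges.

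The same rule, with the same limits on genes and mitochondrial UMIs, chose 548 of 16733 kept forelimb cells (3.28%) and 819 of 16461 kept hindlimb cells (4.98%). Its Col2a1 limit left out 793 forelimb and 1192 hindlimb cells that otherwise met it, more than it chose, against 1, 1 and 2 penis cells. The limb side thus lacked its cells with most Col2a1. With 1 library of each limb, the limb libraries were taken as 2 samples of 1 group. Age and tissue, with any difference in preparation, went together between penis and limb and cannot be told apart. The limb cells were shallower, at medians of 6166 and 6565 UMIs. Among the rule's genes, which are a description, Sox9 was at 476.4 and 515.9 CPM in the limb cells, close to the penis cells, and Col2a1 was at 242.1 and 258.2 CPM, above the penis cells. Mia was at 159.4 and 197.6 CPM in the limb cells and at 17.2, 24.2 and 17.1 CPM in the penis cells. Col9a1 had the opposite order, at 106.6 and 98.0 CPM in the limb cells and 239.1 to 291.6 CPM in the penis cells.

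Of 14918 genes tested between the penis and limb cells chosen by the rule, 1454 (9.75%) were higher and 1286 (8.62%) lower in penis. Of 17 division genes tested, 3 were lower in penis and none was higher, with a median log2 fold-change of -0.71. Without every cell that held a UMI of Mki67, Top2a or Cenpf, 1286 genes were higher and 1075 lower. Esr1 had 220.3, 222.8 and 229.2 CPM against 6.26 and 11.2 CPM (4.66, SE 0.15, edgeR adjusted p = 1.1e-09), and Srd5a2 had 44.0, 38.8 and 39.8 CPM against 0.927 and 0.440 CPM. Of 14 steroid genes, 6 were higher and 1 was lower in penis.

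The largest rises in penis included Serpina3n, at 49.9, 57.1 and 58.1 CPM in penis and without a UMI in either limb library. Against a floor of 3 UMIs over the limb cells it was at least 204-fold higher, although its reads may be shared with near-identical members of its family. Agt had 262.0, 233.2 and 237.9 CPM in penis and 0 and 0.440 CPM in limb. Isl1, a transcription factor of the genital tubercle and hindlimb field, had 184.7, 177.1 and 179.6 CPM against 0.232 and 3.96 CPM (6.22, SE 0.28, edgeR adjusted p = 8.5e-09). Chad had 1.85 and 1.47 CPM in limb (5.79, SE 0.17, edgeR adjusted p = 6.8e-10). Myoc, Ostn and Krt8 were higher too, by 7.21, 6.27 and 5.28. These genes were named only if the penis and limb libraries did not overlap.

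In the other direction, Foxp2, a transcription factor gene, had 4.94, 7.37 and 7.47 CPM in penis and 709.9 and 899.7 CPM in limb (-6.90, SE 0.15, edgeR adjusted p = 1.7e-10), with Adgrb3 and Ebf3 lower by -6.48 and -6.25. The embryonic globins Hbb-y and Hba-x and the muscle actin Actc1 had no UMI in the penis cells. Hbb-y had 46.3 CPM in forelimb and 255.1 CPM in hindlimb, Hba-x 27.6 and 79.2 CPM, and Actc1 63.0 and 38.4 CPM. Against a floor of 3 UMIs over the penis cells they were at least 783-, 277- and 264-fold lower there, at least 241-, 143- and 327-fold lower against the forelimb alone and at least 1330-, 411- and 200-fold lower against the hindlimb alone. Cpa3 and Cma1, proteases of mast cells, were lower by -7.51 and -6.52. These follow markers of other cells: haemoglobin genes summed to 9344 to 11800 CPM in the limb cells and 2935 to 6630 CPM in the penis cells, all 5 muscle markers were lower in penis, and 5 of 6 smooth muscle markers were higher in penis. Of 11 keratinocyte markers, 5 were higher and 2, Krt18 and Epcam, lower. Of 10 white blood cell markers, 4 were lower and none was higher, with a median of -1.29. Of 4 glial markers tested, 2 were higher and 1 was lower. Their part in the other differences was not tested.

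Of 29 cartilage genes outside the rule, 8 were higher and 4 lower in penis, with a median of 0.63 against 0.01 over all genes. Limb cells over the Col2a1 limit were not on the limb side, and the part of this was not tested. Cnmd had 31.7 and 39.2 CPM in limb, below all 3 penis libraries (2.78, SE 0.12, edgeR adjusted p = 6.1e-09). Prg4 had 102.2, 127.6 and 80.8 CPM in penis and 5.79 and 6.01 CPM in limb. The lower ones were Foxc1, Cytl1, Matn1 and Barx1, and Foxc1, a transcription factor gene of skeletal mesenchyme, had 2.38, 2.51 and 2.89 CPM against 80.2 and 85.4 CPM. Runx2 had 41.7, 48.3 and 56.6 CPM in penis against 65.1 and 72.5 CPM in limb, a difference of -0.46 (SE 0.12, edgeR adjusted p = 0.0079) that was below the limit.

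Signalling lists differed in direction. Of 12 hedgehog genes, 5 were lower in penis and none was higher, with a median of -0.94: Ptch1 and Gli1, which are targets as well as members of the pathway, Gli3, Hhip and Disp1. Ptch1 had 33.4, 30.5 and 32.5 CPM against 106.8 and 165.5 CPM (-2.04, SE 0.15, edgeR adjusted p = 6.9e-07). Of 20 FGF genes, 8 were lower and none was higher. Those that fell included Spry1, Spry2, Dusp6 and Etv5, which FGF signals are known to induce, and the ligand Fgf18. Of 14 Notch genes, 5 were higher and none was lower, among them the receptor Notch3, the ligand Jag1 and the target genes Hey1, Hey2 and Heyl. Notch3 is also on the list of pericyte markers, and 5 of 6 smooth muscle markers were higher in penis too. The part of such cells in the Notch calls was not tested. Of 29 BMP genes, 8 were higher and 2 lower, with Grem1 up by 5.25 and Gdf5, a ligand of the forming joint, at 1.02, 0.719 and 2.17 CPM in penis against 65.1 and 59.8 CPM in limb.

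Of 23 collagens outside the rule, 10 were higher in penis, 2 lower and 11 not called, and of 40 matrix genes 14 were higher, 2 lower and 24 not called. General mesenchyme markers moved with them: 5 of 10 were higher in penis (Il11ra1, Col6a2, Fbln1, Col5a2 and Col6a1) and none was lower, with a median of 0.99, and the list summed to 5746 to 5941 CPM in the penis cells and 3215 to 3486 CPM in the limb cells. At least 5 of the 10 were read in 455 of 548 forelimb and 671 of 819 hindlimb cells, against 1311 of 1316 penis cells, and the limb cells were shallower. The part of this in the collagen and matrix differences was not tested. Col1a1 had 6690, 7191 and 8319 CPM in penis against 2905 and 2141 CPM in limb (1.60, SE 0.13, edgeR adjusted p = 1.7e-06). Bgn, or biglycan, had 1615, 1545 and 1736 CPM against 317.2 and 242.8 CPM. Aspn had 298.1, 326.5 and 362.3 CPM against 191.6 and 108.1 CPM (1.2, SE 0.18, edgeR adjusted p = 0.00019), and Lox had 235.3, 240.9 and 202.5 CPM against 117.7 and 81.7 CPM (1.25, SE 0.14, edgeR adjusted p = 1.6e-05). Both calls rested on the hindlimb library: without it, the log2 fold-changes were 0.82 and 0.99, and with the study's own limits for limb cells that of Lox was 0.95.

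**Figure D5:**
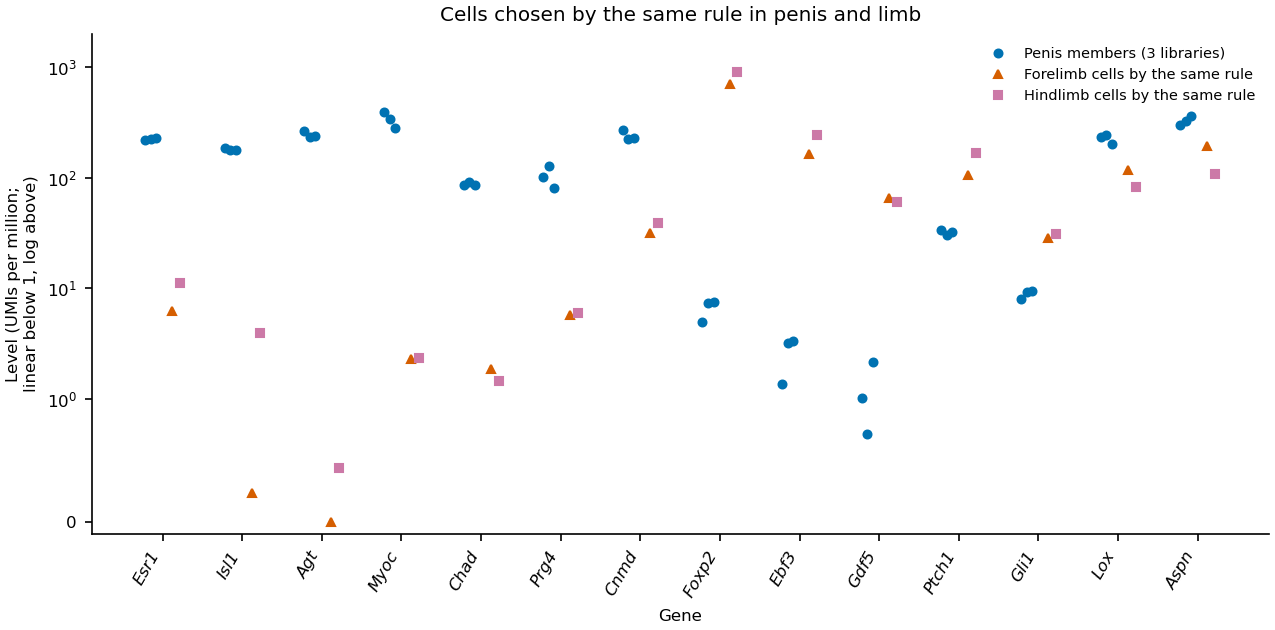
Levels in CPM (linear below 1, log above) of 14 genes in the cells chosen by the same rule, 1 point per library, for 3 penis libraries (members), the forelimb and the hindlimb. Esr1, Isl1 and Myoc lie far higher in penis and Foxp2 and Ebf3 far higher in limb.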

How the data were processed

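Single-cell RNA-seq of 3 penis, 1 forelimb and 1 hindlimb libraries was analysed from the deposited UMI counts per gene and barcode, which the authors made with Cell Ranger 7.0.0 against mm10 (submitters' processing notes). Whether introns were counted is not given in the sources used here. The cells and gene lists were chosen with earlier results of these data known. Counts were summed per library and cell group and compared with edgeR 4.0.16 (limma 3.58.1, R 4.3.3): TMM, filterByExpr, the quasi-likelihood test, Benjamini-Hochberg adjustment over all genes tested, and the library as a block in penis comparisons, since both groups of a pair come from 1 library. Each SE was derived from the test, by dividing the size of the log2 fold-change by the root of F. Named genes were called, changed alike in every library and reached 50 CPM in the higher group: the 12 largest rises and 8 largest falls (8 and 8 for limb), plus Runx2, Aspn and Lox and the fixed lists. Some results are not reported here. Limb cells passed the same limits as penis cells, and the study's own limb limits were an alternative. Clusters (Scanpy 1.11.5, leidenalg 0.10.2) used 2000 variable genes without the rule's genes, 30 components, 15 neighbours and a resolution of 1. Scrublet's automatic threshold called 0 to 4 cells per library and had not worked, so no doublets were removed and a score limit served as an alternative. The edgeR script was tested on simulated data. DESeq2 1.42.0 was an alternative. Intervals and floors cover counting error only. Python 3.11.15 was used with numpy 2.4.6, scipy 1.17.1, pandas 2.3.3 and matplotlib 3.10.9.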

Additional observations from a re-analysis of the deposited data

How the results depend on the processing

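Most results held. Over the alternatives run, 88 of 92 counts and shares stayed within their limits, 925 alternatives of 67 named-gene results kept their direction and call, and no direction reversed. The share of kept penis cells that met the rule moved from 6.71% to 5.10% with at least 3 Sox9 UMIs, to 5.08% with at least 4 cartilage genes and to 7.84% among cells with 5000 to 20000 UMIs. The 3 leading clusters held 60.8% of the selected cells at a clustering resolution of 2. Across alternatives, including those that left out 1 library, 513 to 643 genes were higher and 1432 to 2065 lower against the other penis cells, 583 to 731 and 741 to 1169 against the other mesenchyme, and 1180 to 1663 and 948 to 1580 against the limb cells. Without the replicate block the first 2 comparisons called 596 and 1900, and 686 and 1022, and the block changed no call of a named gene. The third comparison held no pairs, since the penis libraries were from postnatal day 6 and the limb libraries from embryonic day 15. Runx2 against the other penis cells, at 0.95, passed the limit under 5 alternatives (1.01 to 1.52). Aspn and Lox lost their calls against the limb without the hindlimb library (0.82 and 0.99), and Lox also with the study's limits for limb cells (0.95). The cause was not tested. At 2000 UMIs per cell, 4.76% of the selected cells held a Runx2 UMI. Penis cells with Col2a1 over the limit were not compared, since there were 1, 1 and 2. The 793 forelimb and 1192 hindlimb cells over it were not compared either. The alternatives without dividing cells and within clusters, also at 5000 to 20000 UMIs, were added after the data were seen. Depth limits genes of a few UMIs per library, such as Matn1.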

Other observations

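When the 1316 Sox9 cartilage-gene cells were clustered on their own, at a resolution of 0.5, 14 sub-clusters resulted, and each drew cells from all 3 penis libraries. They are given by their leading genes as a description. The largest, of 235 cells (91, 86 and 58 by library), was led by globin genes. The next were led by Oprk1, Fabp4 and Angpt1 (209 cells), by Cnmd, Egfem1 and Erbb4 (202 cells, 69, 65 and 68) and by Il1rapl2, Egfl6 and Npnt (153 cells). Dividing cells led by Hist1h1b and Top2a numbered 106. A sub-cluster of 95 cells (28, 39 and 28) had Prg4 among its leading genes beside Lyz2, Tyrobp and C1qb, genes of macrophages. Another of 70 cells (26, 24 and 20) was led by Runx2, Nppc, a growth-plate natriuretic peptide gene, and Krt15, with the keratinocyte genes Krt14 and Krt5 also among its first 10. The tendon genes Tnmd and Scx led 33 cells, of which 18 came from library 3 and 8 and 7 from libraries 1 and 2.

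Some small sub-clusters carried leading genes of other cell types. Vessel genes, among them Cldn5 and Cdh5, led 10 cells with a median doublet score of 0.359 and a median depth of 18339 UMIs. Clec3b, Wnt2 and Dpt, which were lower in the selected cells as a whole, led 43 cells with a median doublet score of 0.102 and 15520 UMIs. Smooth muscle genes led 18 cells with a median score of 0.0503. The other 11 sub-clusters had median scores of 0.0147 to 0.0540. Doublets among these cells were not tested beyond leaving out the highest scores.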
